A study of Homo sapiens with 6 samples.

Results

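The data cover 10 genes of the YAP-TEAD axis, measured by RNA sequencing in human melanoma cells with and without a knockdown of NFKBIZ, the gene of the transcriptional co-regulator IκBζ. The genes were chosen by name: the co-activators YAP1 and WWTR1 (the gene of TAZ), the DNA-binding partners TEAD1 and TEAD4, the target genes CCN1, CCN2 and ANKRD1, and AMOTL2, AJUBA and LATS2, whose products act back on the pathway. They were 10 of the 47432 genes in each table. The cells were LOX-IMVI, an established human melanoma line with constitutive IκBζ protein, all transduced by lentivirus and selected with puromycin. The shCtrl group carried the control vector and the shNFKBIZ group a short hairpin RNA against NFKBIZ, with 3 libraries each from separate experiments. Only 1 hairpin was used in 1 cell line, so that effects of the hairpin itself and of the loss of IκBζ cannot be told apart. The comparison asks which genes change when constitutive IκBζ is depleted.

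YAP1 and TAZ carry no DNA-binding domain. In cells with low Hippo activity they enter the nucleus, bind TEAD factors at DNA and switch on genes for matrix-associated and cytoskeletal proteins. The Hippo kinases, ending in LATS1 and LATS2, phosphorylate YAP1 and TAZ and keep them in the cytoplasm. Several inhibitors, LATS2 and AMOTL2 among them, are themselves YAP-TEAD targets, which forms a negative feedback loop. In melanoma, YAP and TEAD activity is known from the dedifferentiated, invasive cell state.

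Reads assigned to exons ranged from 22264473 to 24624839 per library, and intron reads made up 7.16 to 7.46% of gene reads in shCtrl and 7.63 to 8.15% in shNFKBIZ. NFKBIZ itself stood at 41.4, 42.9 and 49.2 TPM (a level corrected for transcript length and library total) in shCtrl and at 13.7, 14.1 and 13.3 TPM in shNFKBIZ. That is a log2 fold change of -1.78 ± 0.0581 (SE, n = 3 against 3; edgeR quasi-likelihood test, adjusted p = 7.20e-17), so the libraries matched their labels. Of 8 melanocyte lineage markers, 5 stayed under 3 reads in every library, and SOX10, MLANA and S100B were at 0. MITF, the lineage regulator, was at 2.83 to 3.58 TPM in shCtrl and 1.72 to 2.16 TPM in shNFKBIZ. Its log2 fold change was -0.77 (edgeR, adjusted p = 2.55e-05). The summed level of the 8 markers was 3.19 to 4.23 TPM in shCtrl and 1.79 to 2.62 TPM in shNFKBIZ. AXL, EGFR and SOX9, markers of dedifferentiated melanoma, were above 1 TPM in every library, NGFR, the other marker of that state, had 0 to 3 reads, and the summed level of the 4 markers of that state was 447 to 492 TPM in shCtrl and 602 to 614 TPM in shNFKBIZ. Markers of other cell types were low except COL1A1, which was at 29.3 to 32.3 TPM in shCtrl and 7.67 to 10.3 TPM in shNFKBIZ. The summed level of 5 fibroblast genes, mostly COL1A1, was 30.3 to 33.2 TPM in shCtrl and 7.88 to 10.4 TPM in shNFKBIZ, and that of 3 keratinocyte genes was 0.308 to 0.728 and 1.42 to 1.85 TPM. The 3 leukocyte genes summed to at most 0.482 TPM and the 3 endothelial genes to at most 0.102 TPM. The part of these marker differences in the results for the YAP-TEAD genes was not tested.

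TEAD factors read a short DNA element, CATTCC on either strand, and its copies in the promoters of the 10 genes are shown first because TEADs and their co-activators reach target genes through it. RefSeq promoter windows, from 250 bases before to 50 bases after a transcription start (GRCh38.p14), matched 7 of the 10 genes by symbol, with 10 windows in all. There was no match for TEAD1, TEAD4 or CCN1. CATTCC or its reverse complement GGAATG was present in 6 of these 10 windows, against 14.0% of all 35116 promoter windows. The 6 windows belong to 6 of the 7 genes, the exception being WWTR1. WWTR1, AMOTL2 and AJUBA have 2 windows each, and for AMOTL2 and AJUBA only 1 of the 2 held the element. Their stretches printed below lie inside the annotated gene. CCN2 had 3 copies, which 0.128% of all windows reach or exceed, and ANKRD1 had 2, which 1.37% reach or exceed. The stretches with the element are given on the strand of the gene, with the element in capitals.
CCN2 proximal, chr6:131951455-131951484, minus strand, positions -112 to -83 from the start: ggtggggaGGAATGcgaGGAATGtccctgt
CCN2 distal, chr6:131951524-131951553, minus strand, positions -181 to -152: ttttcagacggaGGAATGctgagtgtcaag
ANKRD1 proximal, chr10:90921198-90921227, minus strand, positions -140 to -111: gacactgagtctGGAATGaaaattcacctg
ANKRD1 distal, chr10:90921290-90921319, minus strand, positions -232 to -203: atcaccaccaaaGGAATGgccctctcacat
AMOTL2, chr3:134374499-134374528, minus strand, positions -81 to -52: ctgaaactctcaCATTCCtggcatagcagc
YAP1, chr11:102110273-102110302, plus strand, positions -174 to -145: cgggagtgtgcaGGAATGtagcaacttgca
AJUBA, chr14:22976884-22976913, minus strand, positions -71 to -42: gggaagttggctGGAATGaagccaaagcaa
The element of LATS2 lies after its start, at position 10, and is not printed.

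The same windows were searched on both strands for elements of factors that often act beside TEAD or IκBζ. An AP-1 element, TGANTCA, was in 7.71% of all windows and among the 7 genes only in ANKRD1, at position -195. The κB element, the binding site of NF-κB, was in 5.91% of all windows and in those of CCN2 and AMOTL2. In CCN2 it began at position -95, the first base of the TEAD element nearest to the start, so that the same bases were counted for both. The STAT element TTCNNNGAA was in 7.66% of all windows and the CArG box, the element of serum response factor, in 1.29%, and neither was in a window of these genes. A match is a match of letters only, and these data hold no binding measurement at these sites.

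**Figure D1:**
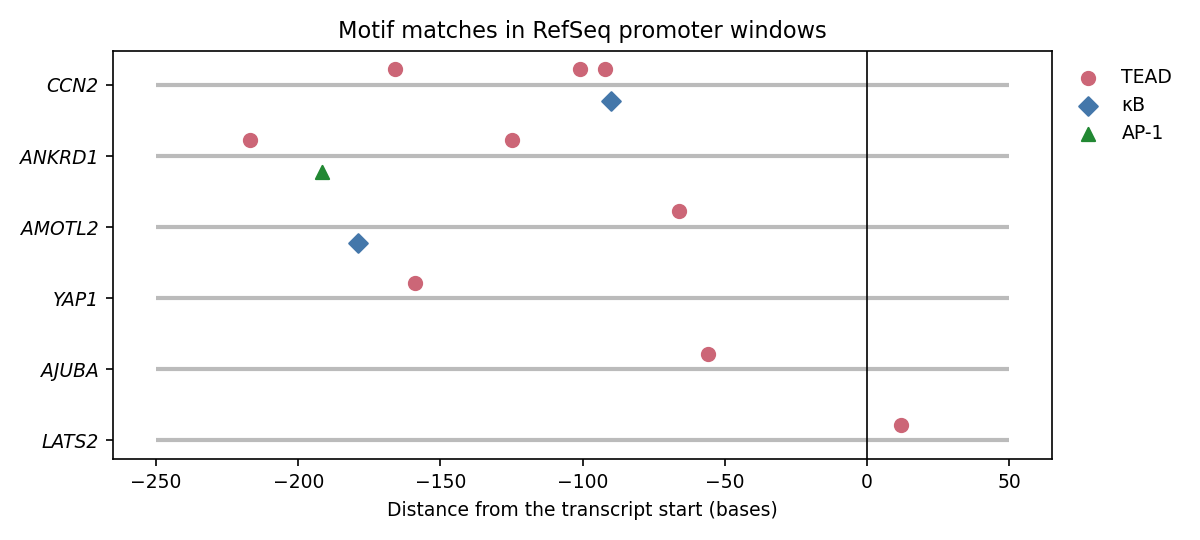
Positions of TEAD, κB and AP-1 element matches (symbols) in the RefSeq promoter windows of the 6 genes with a match (rows). The x axis gives the distance in bases from the transcription start of the window. AMOTL2 and AJUBA have 2 windows each, drawn on a single row per gene. CCN2 has 3 TEAD elements before its start and ANKRD1 has 2, and the element of LATS2 lies after its start.

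Knockdown of NFKBIZ went along with lower exon reads of both CCN genes, of the feedback genes AMOTL2 and LATS2 and of both TEADs, while WWTR1 was higher. Among the 10 genes, 1 rose and 6 fell at an adjusted p of 0.05, and 3 (YAP1, ANKRD1 and AJUBA) did not pass the test. Across all 13843 genes tested, 65.3% passed, 32.5% higher and 32.8% lower, so that a count of 7 of 10 is close to the background. Past a fold change of 2 as well, there were 2 of the 10, CCN2 and CCN1, both lower, against 8.96% of all genes in either direction and 5.12% lower. The median log2 fold change was -0.42 over the 10 genes and 0.0043 over all genes tested. With library size as the only scaling, the 532 higher and 709 lower calls past 2-fold over all genes became 668 and 584, and the 2 CCN genes remained past the threshold.

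**Figure D2:**
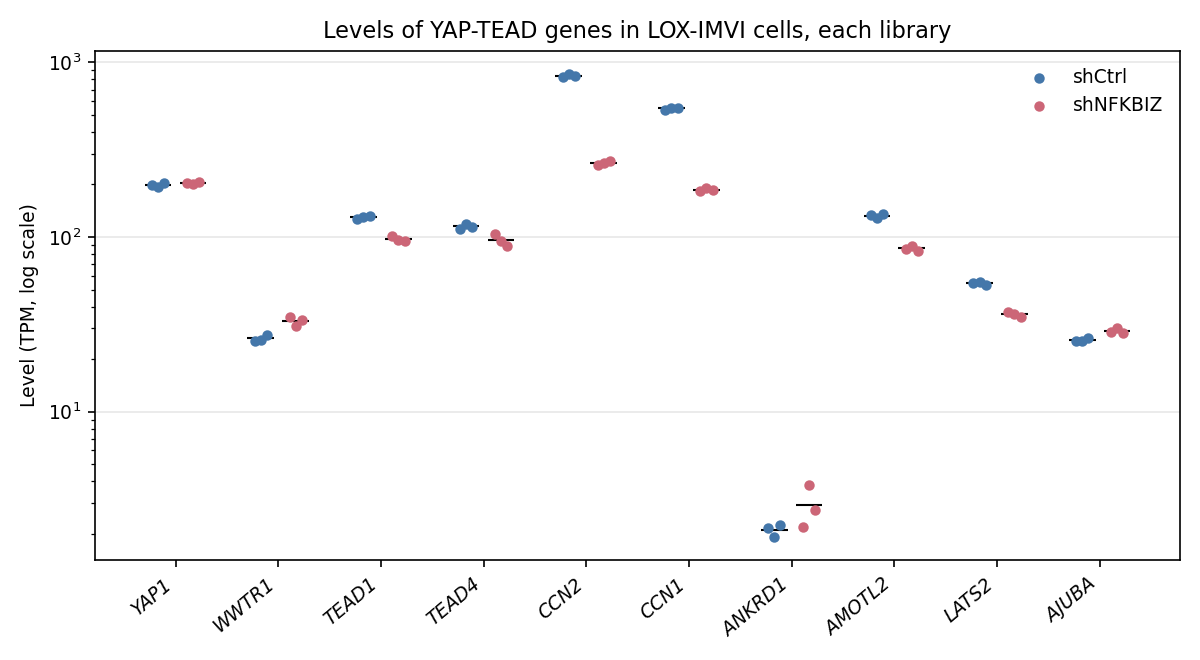
Level of each gene in TPM (log axis) in the 6 libraries, with shCtrl and shNFKBIZ libraries as points and group means as short black lines. CCN2 and CCN1 separate most, at means of 841 and 547 TPM in shCtrl against 266 and 186 TPM in shNFKBIZ, and YAP1 stays near 200 TPM in all 6.

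CCN2, the gene of connective tissue growth factor, is a secreted matrix-associated protein and the most widely used readout of YAP-TEAD activity. It spans chromosome 6, 131948176 to 131951372 on the minus strand (hg38). Its level was 822, 860.3 and 842 TPM in shCtrl and 260.0, 266 and 272 TPM in shNFKBIZ. The groups were far apart, and CCN2 was the highest of the 10 genes in both. In exon reads the log2 fold change was -1.74 ± 0.0358 (SE; edgeR, adjusted p = 4.08e-20), or 3.35-fold lower. The noncoding gene LINC01013 covers CCN2 on the opposite strand but had at most 8 exon reads in any library. The counting did not use strand, and 100% of the exon reads of CCN2 were counted as unique to it.

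CCN1, a related secreted protein that binds integrins and is likewise induced by YAP and TEAD, spans chromosome 1, 85580761 to 85584589 on the plus strand. It was measured at 537, 552 and 551 TPM in shCtrl and 185, 189.9 and 185 TPM in shNFKBIZ. The shNFKBIZ libraries lay within 6 TPM of one another and all below the lowest shCtrl library. Exon reads were 3.10-fold lower, with a log2 fold change of -1.63 ± 0.0330 (SE; edgeR, adjusted p = 3.22e-20). Reads that span exon-exon junctions, a subset of the same libraries, gave -1.60 for CCN1 and -1.80 for CCN2.

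The 2 genes did not fall in exact proportion. The ratio of CCN2 to CCN1 in TPM was 1.54 ± 0.0174 (SD, n = 3) in shCtrl and 1.43 ± 0.0374 (n = 3) in shNFKBIZ, and the groups did not overlap. The difference in log2 ratio was -0.11, with p = 0.1 in a two-sided exact permutation test, the smallest p that 3 against 3 libraries allow. In junction reads the difference was -0.20 with the same p.

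ANKRD1, an ankyrin repeat protein of the nucleus and the sarcomere that is a classical YAP target, spans chromosome 10, 90912096 to 90921087 on the minus strand. It was near the floor of these libraries, where shCtrl libraries held 24, 22 and 23 of its exon reads, and shNFKBIZ libraries 23, 39 and 29. These correspond to 2.10 ± 0.166 TPM (SD, n = 3) and 2.90 ± 0.812 TPM (n = 3), with overlapping groups. Its log2 fold change was 0.38 with a 95% interval of -0.15 to 0.91 (edgeR, adjusted p = 0.193), and 0.16 without shNFKBIZ replicate 2. A fall of the size seen in CCN1 or CCN2 lies outside the interval, so the 3 target genes did not move alike. In total gene reads, which add the 1, 1 and 3 intron reads of shCtrl and the 5, 7 and 12 of shNFKBIZ, ANKRD1 was higher by 0.60 on the log2 scale (edgeR, adjusted p = 0.0343).

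YAP1 spans chromosome 11, 102110447 to 102233424 on the plus strand. Its level was 197.6, 193 and 203 TPM in shCtrl and 203, 200.3 and 206 TPM in shNFKBIZ, with overlapping groups. The log2 fold change in exon reads was -0.05 with a 95% interval of -0.11 to 0.02 (edgeR, adjusted p = 0.243), so a change of YAP1 mRNA beyond that range was not seen. Its sign turned positive, at 0.04, with library size as the only scaling and in junction reads. Intron reads differed by 0.02 (95% interval -0.09 to 0.14).

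WWTR1, whose product TAZ is the paralog of YAP1, spans chromosome 3, 149517235 to 149736714 on the minus strand. It was measured at 25.5, 25.8 and 27.6 TPM in shCtrl and 34.7, 31.1 and 33.5 TPM in shNFKBIZ. All 3 shNFKBIZ libraries were above all 3 shCtrl libraries. The log2 fold change was 0.25 ± 0.05001 (SE; edgeR, adjusted p = 1.55e-04), or 1.19-fold higher on the scale of trimmed-mean normalised counts. WWTR1 made up 11.7 ± 0.282% (SD, n = 3) of the summed TPM of both co-activators in shCtrl and 14.0 ± 0.590% (n = 3) in shNFKBIZ. The ratio of WWTR1 to YAP1 rose from 0.133 ± 0.00362 to 0.163 ± 0.00798 (SD, n = 3 each), a difference of 0.29 in log2, with p = 0.1, the smallest the exact permutation test allows. In junction reads it was 0.23 (exact permutation p = 0.3), so the groups were no longer fully apart.

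TEAD1 spans chromosome 11, 12674421 to 12944737 on the plus strand. It stood at 127.5, 129.9 and 131.7 TPM in shCtrl and at 101.3, 96.1 and 94.7 TPM in shNFKBIZ, without overlap. Its log2 fold change was -0.49 ± 0.0354 (SE; edgeR, adjusted p = 5.41e-11), or 1.41-fold lower. TEAD4 (chromosome 12, 2959330 to 3040676, plus strand) stood at 111.5, 118.8 and 114.6 TPM in shCtrl and at 104, 95.1 and 88.5 TPM in shNFKBIZ. These groups did not overlap either, although the shNFKBIZ libraries were spread over a wider range. TEAD4 fell by 0.34 ± 0.0540 on the log2 scale (SE; edgeR, adjusted p = 1.28e-05).

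The other family members TEAD2 and TEAD3 had log2 fold changes of -0.14 (edgeR, adjusted p = 0.0278) and -0.44 (adjusted p = 1.83e-06). All 4 TEAD genes thus passed the test with lower exon reads, as did 32.8% of all genes tested. TEAD2 was at 51.4, 50.8 and 48.2 TPM in shCtrl and at 45.0, 50.4 and 49.0 TPM in shNFKBIZ, so its groups overlapped in TPM. Summed over the family, the 4 genes reached 328 ± 5.77 TPM in shCtrl and 268 ± 8.64 TPM in shNFKBIZ (SD, n = 3 each). The share of TEAD2 in that sum was 15.3 ± 0.593% in shCtrl and 18.0 ± 1.46% in shNFKBIZ (SD, n = 3 each). TEAD1 made up 39.5 ± 0.700% of that sum in shCtrl and 36.4 ± 0.550% in shNFKBIZ, and TEAD4 35.0 ± 0.505% and 35.8 ± 1.78% (SD, n = 3 each). The ratio of TEAD4 to TEAD1 was 0.886 ± 0.0244 in shCtrl and 0.983 ± 0.0466 in shNFKBIZ (SD, n = 3 each; log2 difference 0.15, exact permutation p = 0.1, the smallest possible). In junction reads that difference was 0.05 (exact permutation p = 0.7), so it did not hold there.

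**Figure D3:**
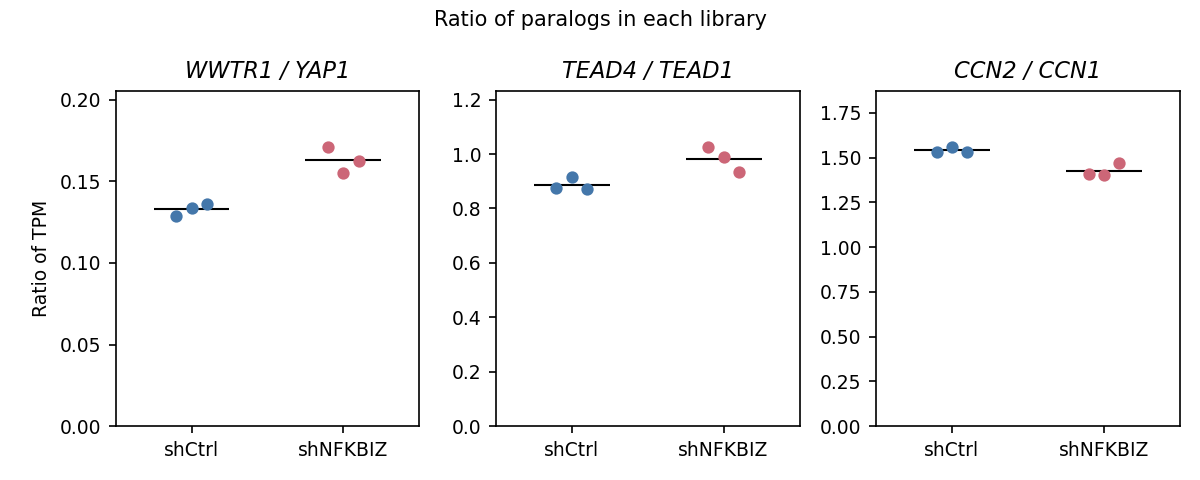
Ratio of TPM within the 3 paralog pairs (panels) in each of the 6 libraries, with group means as black lines and the y axis from 0. WWTR1 to YAP1 is higher in all shNFKBIZ libraries, at a mean of 0.163 against 0.133, and CCN2 to CCN1 is lower, at 1.43 against 1.54.

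AMOTL2, an angiomotin family scaffold that binds YAP and holds it at junctions and in the cytoplasm, spans chromosome 3, 134355347 to 134375479 on the minus strand. It was measured at 133, 129.2 and 134.7 TPM in shCtrl and at 85.7, 88.8 and 83.5 TPM in shNFKBIZ. Each group kept within 6 TPM, and the difference between groups was far larger. The log2 fold change was -0.70 ± 0.0346 (SE; edgeR, adjusted p = 8.54e-14), or 1.63-fold lower.

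LATS2, the kinase that phosphorylates YAP and TAZ, spans chromosome 13, 20973036 to 21061586 on the minus strand. Its level was 54.6, 55.1 and 53.4 TPM in shCtrl and 37.4, 36.2 and 34.6 TPM in shNFKBIZ, so the groups were separate. Exon reads were 1.60-fold lower, with a log2 fold change of -0.68 ± 0.0454 (SE; edgeR, adjusted p = 1.90e-11). Its paralog LATS1 moved in the other direction, by 0.16 ± 0.0446 (adjusted p = 0.00272).

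AJUBA, a LIM domain protein that restrains LATS kinases, spans chromosome 14, 22971177 to 22982551 on the minus strand. It stood at 25.3, 25.4 and 26.5 TPM in shCtrl and at 28.6, 30.05 and 28.2 TPM in shNFKBIZ. The groups did not overlap in TPM. The same held in CPM (reads scaled by library total and trimmed-mean factor), where 68.7% of all genes tested had groups without overlap. The log2 fold change of 0.09 had a 95% interval of -0.01 to 0.19 (edgeR, adjusted p = 0.114). AJUBA passed the test with library size as the only scaling, at 0.18 (edgeR, adjusted p = 0.00322). It also passed in total gene reads, at 0.11 (adjusted p = 0.0457), which add intron reads that were not unique to AJUBA.

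In shCtrl the order of levels in TPM was CCN2, CCN1, YAP1, AMOTL2, TEAD1, TEAD4, LATS2, WWTR1, AJUBA and ANKRD1. Neighbours whose library ranges overlapped were AMOTL2 with TEAD1 and WWTR1 with AJUBA. In shNFKBIZ the order was CCN2, YAP1, CCN1, TEAD1, TEAD4, AMOTL2, LATS2, WWTR1, AJUBA and ANKRD1, with overlap of TEAD1 with TEAD4, of TEAD4 with AMOTL2 and of LATS2 with WWTR1. CCN1 thus passed below YAP1. AMOTL2 passed below the TEADs by its mean only, as its range overlapped that of TEAD1 in shCtrl and that of TEAD4 in shNFKBIZ. In bulk RNA, fewer cells expressing a gene and less of its RNA per cell cannot be told apart.

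Intron reads, which come mostly from RNA before splicing, gave a separate readout of the same libraries. Of the 10 genes, 9 had enough intron reads to be tested. Of these, 6 passed, 5 lower and 1 higher, against 38.8% of the 12119 genes tested (19.5% lower, 19.3% higher). The higher one was AJUBA, whose intron reads were not unique to it. With unique intron reads alone, 8 genes were tested and 5 passed, all lower. Past 2-fold there were 0 of the 9, against 6.6% of all genes. At an adjusted p of 0.05 without a limit on fold, 5 of 9 genes differed between their exon and intron changes in a single model of both read types, against 28.9% of 11025 genes. The exon change was the lower in 4 of them and the higher in 1, against 15.7% and 13.1% of all genes. AJUBA was among the 4. With unique reads alone, 4 genes differed in place of 5.

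TEAD1, TEAD4 and LATS2 were lower in intron reads by about as much as in exon reads. For TEAD1, intron reads were 978, 1015 and 1043 in shCtrl and 759, 810 and 769 in shNFKBIZ, a log2 fold change of -0.47 ± 0.0578 (SE; edgeR, adjusted p = 2.63e-08). The exon change minus the intron change was -0.02 ± 0.0640 for TEAD1, -0.03 ± 0.0964 for TEAD4 and -0.08 ± 0.0973 for LATS2, and none of them passed the test. Intron reads of LATS2 fell by 0.58 ± 0.0900 (SE; edgeR, adjusted p = 2.03e-06) and those of TEAD4 by 0.30 ± 0.0867 (adjusted p = 0.00569).

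CCN2 and CCN1 differed between exons and introns. CCN2 had 59, 77 and 51 intron reads in shCtrl and 47, 44 and 51 in shNFKBIZ, with groups that touched at 51. The log2 fold change in intron reads was -0.48 ± 0.170 (SE; edgeR, adjusted p = 0.0225). The exon change was larger by -1.24 ± 0.166 (SE; edgeR, adjusted p = 1.16e-09). Intron reads accordingly made up 0.447 to 0.592% of CCN2 gene reads in shCtrl and 1.21 to 1.33% in shNFKBIZ. The fall in CCN2 intron reads did not pass the test without shCtrl replicate 2 (adjusted p = 0.173), without shNFKBIZ replicate 2 (adjusted p = 0.0962) or with DESeq2 (adjusted p = 0.140).

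CCN1 had few intron reads, 20, 21 and 31 in shCtrl and 22, 15 and 22 in shNFKBIZ. Their log2 fold change of -0.38 had a 95% interval of -0.93 to 0.18 (edgeR, adjusted p = 0.287). It was -0.14 without shCtrl replicate 3 and -0.19 without shNFKBIZ replicate 2. The exon change of -1.63 lies outside the interval over all libraries, and exons and introns differed by -1.24 ± 0.257 (SE; edgeR, adjusted p = 6.03e-05). Both CCN genes were past 2-fold in this difference, as were 1.55% of all genes tested in the lower direction.

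WWTR1 went the other way. Its intron reads were 183, 182 and 151 in shCtrl and 152, 171 and 155 in shNFKBIZ, with overlapping groups and a log2 fold change of -0.20 (95% interval -0.40 to 0.0039; edgeR, adjusted p = 0.114). The exon change exceeded the intron change by 0.46 ± 0.108 (SE; edgeR, adjusted p = 4.10e-04). For AMOTL2 the intron change was -0.40 ± 0.105 (adjusted p = 0.00248) and the exon change was lower than it by -0.29 ± 0.101 (SE; edgeR, adjusted p = 0.0219). That difference did not pass the test without shCtrl replicate 1 (adjusted p = 0.116), shCtrl replicate 2 (0.102) or shNFKBIZ replicate 1 (0.203).

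The intron reads of AJUBA, 40, 70 and 39 in shCtrl and 79, 92 and 67 in shNFKBIZ, gave a log2 fold change of 0.59 ± 0.175 (SE; edgeR, adjusted p = 0.00762). The call was lost with DESeq2 (adjusted p = 0.0604) and without shCtrl replicate 1 (0.0699), shCtrl replicate 3 (0.0690) or shNFKBIZ replicate 2 (0.0558), and the value was 0.88 without shCtrl replicate 2. None of these reads was unique to AJUBA, because a readthrough gene on the same strand shares 11082 of its bases, so they cannot be assigned to AJUBA. The AJUBA difference between exon and intron changes (-0.48, edgeR, adjusted p = 0.0199) did not pass without shCtrl replicate 1 or 3 or without shNFKBIZ replicate 1 or 2. Without shCtrl replicate 1, and likewise without shNFKBIZ replicate 1, 3 of the 9 genes differed between exons and introns (WWTR1, CCN1 and CCN2).

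**Figure D4:**
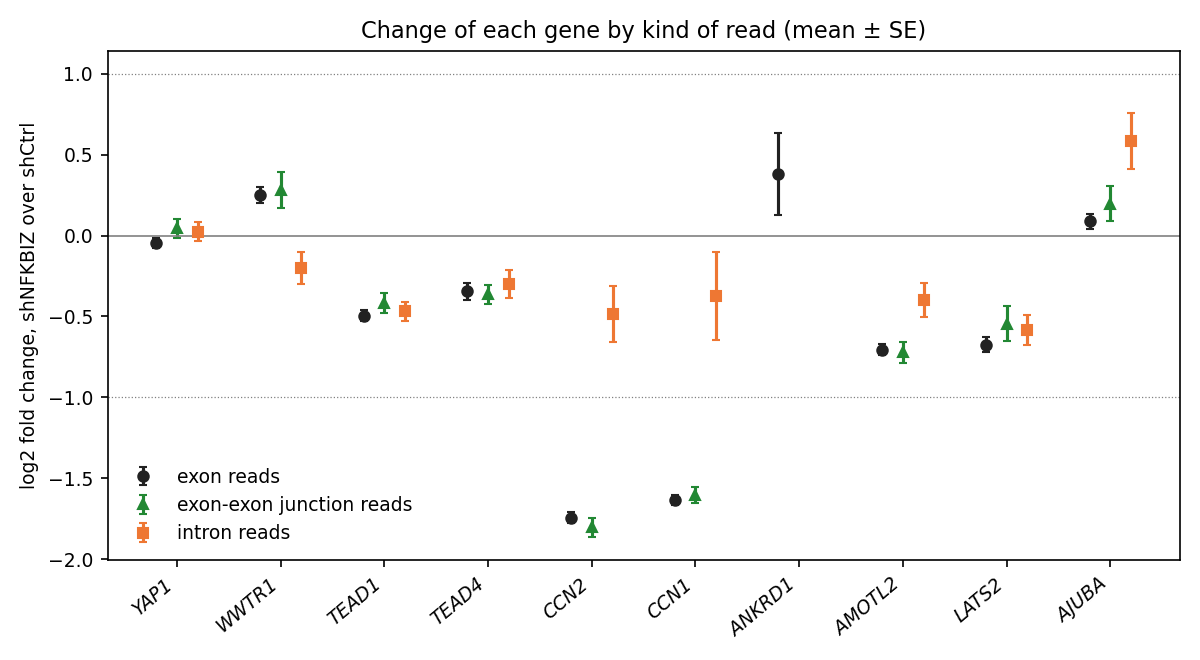
Log2 fold change (y axis, shNFKBIZ over shCtrl, with bars of 1 SE) of each gene in exon, junction and intron reads, with dotted lines at a fold change of 2. The kinds of read lie close together for TEAD1, TEAD4 and LATS2 and far apart for CCN1 and CCN2, with exon changes of -1.63 and -1.74 and intron changes of -0.38 and -0.48.

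The rest of the pathway was counted in 3 lists. Of 15 genes of the Hippo kinase cascade and its upstream regulators, 11 fell, 3 rose and 1 did not pass the test, with a median log2 fold change of -0.42. Over all genes tested, 32.8% fell and 32.5% rose. WWC1, the gene of the scaffold KIBRA that activates LATS kinases, was at 39.9, 41.0 and 37.0 TPM in shCtrl and at 12.4, 11.9 and 11.8 TPM in shNFKBIZ. It fell by 1.79 ± 0.0560 on the log2 scale in exon reads (SE; edgeR, adjusted p = 4.03e-17) and by 1.85 in intron reads. MOB1A, the LATS co-activator, was at 140.5, 134 and 142.9 TPM in shCtrl and at 71.2, 66.7 and 70.2 TPM in shNFKBIZ. The groups of both genes were far apart. MOB1A fell by 1.09 ± 0.0394 (SE; edgeR, adjusted p = 4.52e-16). The kinases STK3 and STK4, which phosphorylate LATS, had log2 fold changes of -0.66 and -0.65, and NF2, the gene of the upstream regulator merlin, had -0.43. All 3 passed the test in exon reads. The 3 genes of the list that rose were WWC3, TAOK2 and LATS1, at 0.43, 0.28 and 0.16. In intron reads, 5 of the 15 fell, 1 rose and 9 did not pass, where 38.8% of all genes tested passed. STK3 passed there at -0.41, as WWC1 did. MOB1A (-0.30, edgeR, adjusted p = 0.154), STK4 (-0.17, adjusted p = 0.306) and NF2 (-0.03, adjusted p = 0.840) did not pass in intron reads.

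Of 10 further TEADs, VGLL cofactors and YAP-binding or LATS-binding inhibitors, 7 had enough reads to be tested, and VGLL1, VGLL2 and AMOT did not. Among the 7, 1 rose, 3 fell and 3 did not pass the test, with a median of -0.06, and the share that passed was below the 65.3% of all genes. VGLL3, which competes with YAP for TEADs, was at 77.7, 74.8 and 78.3 TPM in shCtrl and at 40.5, 38.7 and 38.8 TPM in shNFKBIZ (log2 fold change -1.05 ± 0.0367, SE; edgeR, adjusted p = 2.54e-16). WTIP, a relative of AJUBA, rose from 3.47, 4.14 and 3.64 TPM to 13.01, 14.5 and 12.2 TPM (log2 fold change 1.73 ± 0.0711, SE; edgeR, adjusted p = 1.54e-14).

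Other genes known as YAP-TEAD targets did not follow CCN1 and CCN2 as a group. Of 22 listed, 19 were tested, and 10 rose, 6 fell and 3 did not pass, with a median log2 fold change of 0.17. The background was 32.5% higher and 32.8% lower, and 6 of 19 lower is close to it. IGFBP3, a secreted binder of insulin-like growth factors, stood at 169, 181 and 200.04 TPM in shCtrl and at 43.3, 42.4 and 40.4 TPM in shNFKBIZ. It had the largest fall of the 3 lists, -2.21 ± 0.0492 on the log2 scale (SE; edgeR, adjusted p = 3.89e-18). NT5E, the gene of the ectoenzyme CD73 that makes extracellular adenosine, stood at 100.2, 93.0 and 111 TPM in shCtrl and at 297, 286 and 291 TPM in shNFKBIZ, a rise of 1.44 ± 0.0452 (SE; edgeR, adjusted p = 3.57e-15). The clotting initiator F3 had a log2 fold change of 0.92, the matrix protein gene THBS1 0.54 and EDN1, the endothelin gene, 0.65, and each of them passed the test. Over the 3 lists, 6 of 41 genes tested were past 2-fold, 2 higher and 4 lower, against 8.96% of all genes. With library size as the only scaling, the split became 3 higher and 2 lower, as another gene gained the call and MOB1A and VGLL3 fell short of 2-fold. In junction reads it was 3 and 3, with VGLL3 at -0.80, and in total gene reads 1 and 4, with NT5E short of 2-fold.

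**Figure D5:**
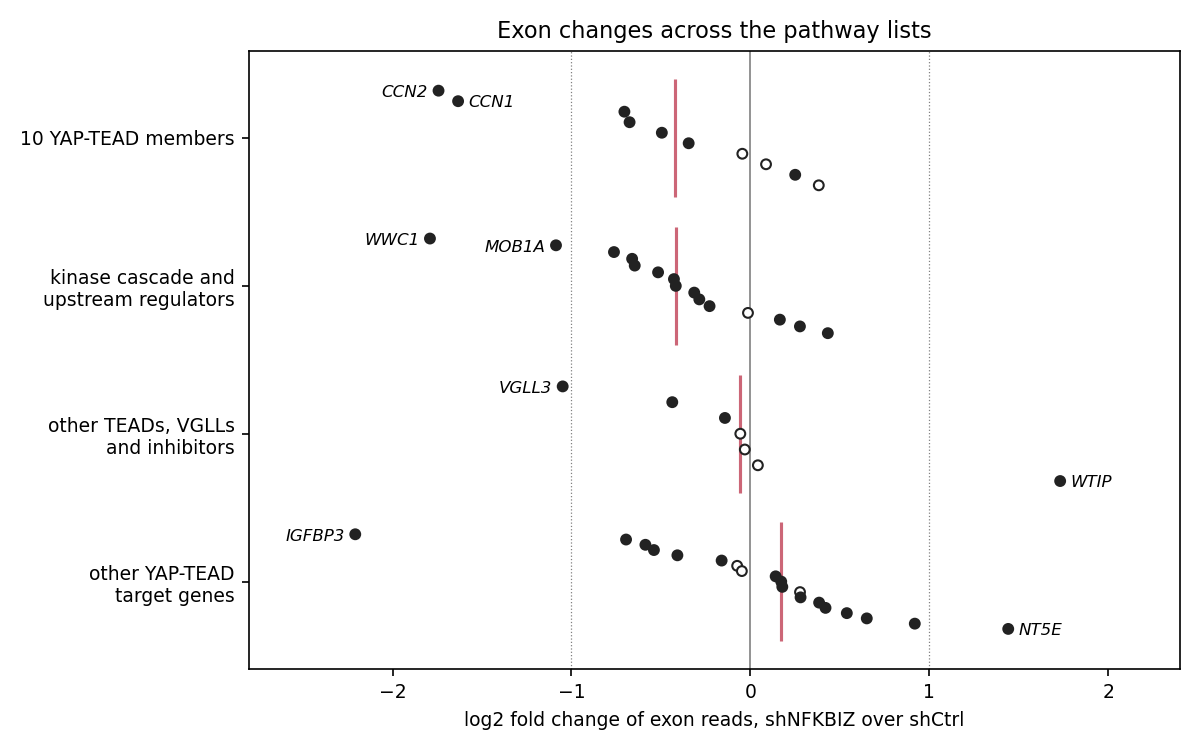
Log2 fold change in exon reads (shNFKBIZ over shCtrl) of each tested gene of the 10 and of the 3 lists, in rows by role, with filled points for an adjusted p of at most 0.05, red lines at list medians and dotted lines at a fold change of 2. The Hippo kinase cascade lies mostly below 0, at a median of -0.42, and the other targets lie on both sides, at a median of 0.17.

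The genes whose levels were most like those of CCN2 over the 6 libraries, by Pearson correlation of log2 CPM, were RHOF, COG6 and EIF2AK2, at 0.9998 to 0.9999. With 2 groups of 3 libraries such values mainly follow the difference between groups, and 922 of 11483 genes with a symbol and at least 50 reads on average were above 0.99.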

How the data were processed

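Total RNA of 6 LOX-IMVI libraries was sequenced as paired reads. Mapping to hg38 was done by the authors in the CLC Genomics Workbench with Ensembl genes, who deposited counts of exon, intron, exon-exon junction and unique reads per gene, without regard to strand. TPM were recomputed from exon counts and exon lengths and matched the deposited TPM for 100% of the genes that have an exon length.

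Counts were tested with edgeR 4.0.16 (R 4.3.3): filterByExpr, trimmed-mean (TMM) factors, robust quasi-likelihood fit, two-sided, Benjamini-Hochberg adjustment over all genes tested. Genes passed at an adjusted p of 0.05 and were past the threshold at a fold change of 2 as well. Exon and intron counts were set against each other in 1 model with the library as a block. SE are the log2 fold change divided by the root of the F statistic. Paralog ratios of TPM were compared by exact permutation. Replicate counts were spread more widely than sampling alone gives (chi-square divided by its degrees of freedom, 1.69 to 4.37). The methods call the replicates independent experiments. The p-values measure the spread between these libraries.

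The 10 genes, the pathway lists and the markers were chosen with earlier results of these data known. The named pathway genes were, in each list and direction, up to 3 past the threshold with the largest change, a mean of at least 50 reads and no overlap between groups. Further pathway genes named in the text (TEAD2, TEAD3, LATS1, STK3, STK4, NF2, WWC3, TAOK2, F3, THBS1, EDN1) were picked after their values were seen. Alternatives were other scaling (RLE factors, library size alone), other filters, DESeq2 1.42.0, a replicate block, other read classes and leaving out each library.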

Additional observations from a re-analysis of the deposited data

How the results depend on the processing

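CCN1 and CCN2 were past the threshold in exon reads under all 16 alternatives, with a count of 2 of the 10 genes each time. Between 7 and 9 of the 10 passed the test in exon reads, between 4 and 7 in intron reads, and 5 or 6 pathway genes were past 2-fold. Leaving out 1 library each gave 3 to 5 genes with a difference between exon and intron changes. The sign of a value that had not passed the test turned in a few cases. YAP1 went to 0.0442 in exon reads with library size alone and to 0.0448 in junction reads, and its intron change ranged from -0.0069 to 0.0535 when 1 library was left out. The exon change minus the intron change of TEAD1 became 0.0088 with library size alone and ranged from -0.055 to 0.0222 when 1 library was left out, and that of TEAD4 from -0.116 to 0.0622. The cause was not tested.

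Same-numbered libraries deviated together only weakly (correlations of 0.0207, 0.0561 and 0.0288), though each correlated best with its own number. The numbers were not taken as pairs. With a replicate block, 2 and 7 of the 10 genes were called in exon reads and 6 in intron reads, and 1244 genes in all were past the threshold against 1241. The permutation p of the paralog ratios was 0.25 with the block, the smallest possible there. Intron counts limit CCN1 and ANKRD1 most, and junction reads were too few to test ANKRD1.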

Other observations

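Exon and intron reads also parted among other YAP-TEAD target genes. Of the 17 targets of the list tested in both, 8 had a higher exon than intron change, 5 a lower one, and 4 did not pass the test, against 13.1% higher and 15.7% lower over all genes tested. Among the 5, RBMS3 had 262 to 289 intron reads per library, of which only 57 to 82 were unique to it. NT5E rose by 1.44 in exon reads and by 0.18 in intron reads (difference 1.28, edgeR, adjusted p = 1.94e-37). Intron reads made up 45.6 to 47.7% of NT5E gene reads in shCtrl and 26.8 to 28.6% in shNFKBIZ. Over all genes they made up 7.16 to 7.46% and 7.63 to 8.15%. The source of the many NT5E intron reads was not tested. TGM2, the gene of tissue transglutaminase, had a log2 fold change of 0.18 in exon reads and -1.31 in intron reads, from 130, 151 and 107 reads in shCtrl to 52, 65 and 49 in shNFKBIZ (difference 1.505, edgeR, adjusted p = 1.35e-16). IGFBP3 had the opposite pattern, with an exon change lower than its intron change by -1.13 (adjusted p = 3.27e-05). TGM2 and RBMS3 were picked after their values were seen.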
